A study of Mus musculus with 4 samples.

Results

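Genes of the bone morphogenetic protein (BMP) pathway were followed in embryonic mouse lung, 9 in all: the ligands *Bmp4* and *Bmp5*, the receptors *Bmpr1a* and *Bmpr2*, the targets *Id1*, *Id3* and *Smad6*, and the secreted modulators *Grem1* and *Bmper*. They were taken by gene symbol from a table of 45706 genes, and all 9 were found and tested, among 18763 tested genes. RNA was sequenced from left lung lobes of C57BL/6 mice at embryonic day 17 (E17), without treatment, from 2 *Myh10*+/+ (wild-type) and 2 *Myh10*-/- mice. The latter are Myh10L458R/L458R, homozygous in every cell for a chemically induced missense allele of non-muscle myosin heavy chain II-B, so the allele is not a deletion of the gene. The labels give neither litter nor sex. The comparison asks whether transcripts of the pathway differed between the genotypes.

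BMPs are secreted ligands that assemble type I and type II receptor kinases at the cell surface. The active type I receptor phosphorylates SMAD proteins, which enter the nucleus with SMAD4 and raise target genes such as the *Id* genes and the inhibitory *Smad6*. Proteins in the extracellular space, Gremlin and Noggin among them, bind the ligands and keep them from their receptors. In the developing lung, *Bmp4* is known for its expression at the tips of growing airways and in the mesenchyme, and the pathway acts in epithelium, mesenchyme and vessels.

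The lungs held 19116971 to 32055306 counted reads. Levels below are in CPM, the read count of a gene divided by the TMM-adjusted total of its lung. *Nkx2-1*, a marker of lung epithelium, stood at 434 to 455 CPM and *Tbx4*, a marker of lung mesenchyme, at 213 to 225 CPM, as the labelled tissue would have it. *Myh10* itself was at 505 and 504 CPM in *Myh10*+/+ and at 539 and 513 CPM in *Myh10*-/- lungs, and a missense allele need not change its count, so this does not check the genotype labels. *Xist*, made from the inactive X chromosome, was abundant in lung 1 of *Myh10*+/+ (3920 CPM) and lung 2 of *Myh10*-/- (4460 CPM) and near absent from the remaining pair (1.84 and 4.1 CPM). For the members, *Nbl1*, *Tmem100* and *Acvrl1*, genotype differences were also taken between the lungs with high *Xist* and between those with low *Xist*. They are given below where they have opposite signs or differ by more than 0.1 on the log2 scale. For the other genes they were not taken. Of all tested genes, 308 (1.64%) passed an adjusted p of 0.05 in edgeR's quasi-likelihood test, 252 of them lower (1.34%) and 56 higher in *Myh10*-/- lungs. With a whole lobe, fewer cells of a type and less RNA per cell cannot be told apart.

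No BMP member passed the test between genotypes. Of the 9 members, 0 had an adjusted p under 0.05 and 0 had an unadjusted p under 0.05 in edgeR, where 16.5% of tested genes did. In the Wald test of DESeq2, 0 were called, against 1.83% of tested genes, and *Grem1* was given no adjusted p. Before adjustment *Bmp5* alone passed 0.05 in that test, as did 1786 of all 18763 tested genes. The median log2 fold change of the members was 0.03, with 7 higher and 2 lower in *Myh10*-/- lungs, beside a median of 0.0018 over all tested genes. The median size of the change, whatever its sign, was 0.12 on the log2 scale over all tested genes. For 8 members the 95% intervals of the fold all lay between 0.867 and 1.35, and *Grem1*, with few reads, had the widest interval. The genotypes did not overlap for 3 of the 9, *Bmpr1a*, *Bmpr2* and *Id3*, while 48.3% of tested genes did not overlap.

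Per exon length, the BMP targets *Id3* and *Id1* were the most abundant members. *Id3* averaged 65.4 CPM per kb of exon over the 4 lungs and *Id1* 59.1, and their ranges overlapped. The receptor gene *Bmpr1a* followed at 30.6 CPM per kb and *Bmp4* at 26.3, without overlap between them. *Bmpr2* (17.2 CPM per kb) and *Bmp5* (16.9 CPM per kb) overlapped, though the level and place of *Bmp5* are uncertain because of an antisense gene described below. *Bmper* reached 10.2, *Smad6* 8.08 and *Grem1* 0.123 CPM per kb, each below the lowest lung of the gene before it.

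**Figure D1:**
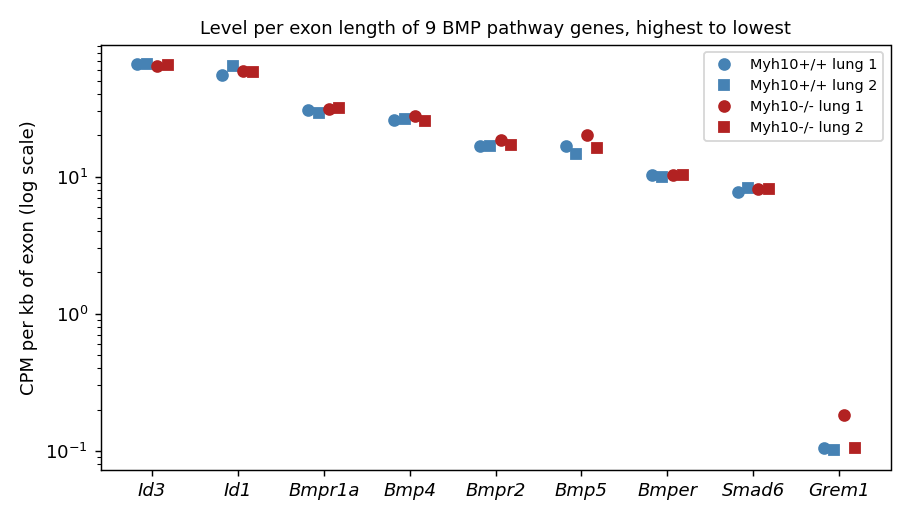
CPM per kb of exon (log scale) of the 9 BMP members in each lung, ordered by mean, with *Myh10*+/+ lungs in blue and *Myh10*-/- lungs in red. *Id3* and *Id1* lie at 55.1 to 66.2 CPM per kb, and *Grem1* lies at 0.101 to 0.182, below all other members.

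The ligand *Bmp4* differed between genotypes by less than the spread of the *Myh10*-/- lungs. The gene (ENSMUSG00000021835; GRCm38 chromosome 14, 46383520 to 46390669, minus strand) has 2248 bp of exon. It had 58.3 and 58.7 CPM in the *Myh10*+/+ lungs and 62.1 and 57.1 CPM in the *Myh10*-/- lungs. The *Myh10*-/- lungs lay on either side of the *Myh10*+/+ lungs. The log2 fold change, *Myh10*-/- over *Myh10*+/+, was 0.03 (SE 0.073, 95% interval -0.13 to 0.19), with an adjusted p of 0.897 in edgeR's test. It was -0.03 between the lungs with high *Xist* and 0.08 between those with low *Xist*.

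*Bmp5*, a BMP ligand made in lung mesenchyme, had the lowest p of the members and the largest spread between lungs among the well-counted ones. The gene (ENSMUSG00000032179; chromosome 9, 75775364 to 75900310, plus strand) was counted at 1119 to 2256 reads per lung. It had 67.2 and 58.8 CPM in the *Myh10*+/+ lungs and 81.1 and 65.2 CPM in the *Myh10*-/- lungs. Only *Myh10*-/- lung 1 stood above both *Myh10*+/+ lungs, and the groups overlapped. Lungs of the same genotype differed by 14.3% and 24.4%, where counting error alone is at most 2.99% per lung. The log2 fold change was 0.21 (SE 0.101, 95% interval -0.0051 to 0.43) or a fold of 1.16, and the adjusted p was 0.312 in edgeR's test. It was 0.11 with an offset for GC content and exon length. Without *Myh10*-/- lung 2 the log2 fold change was 0.37, whereas without *Myh10*-/- lung 1 it was 0.05. Between the lungs with high *Xist* the log2 difference was -0.04, and between those with low *Xist* it was 0.46. An antisense gene, *Gm26903*, covers 1878 bp of the 4025 bp of *Bmp5* exons, and counted reads on it numbered 17 to 37 per lung. Reads that overlapped several genes were left out of the counts, and whether strand was used is not stated, so the level of *Bmp5* is uncertain there.

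Both BMP receptors had a slightly higher mean in the *Myh10*-/- lungs, and neither passed the test. *Bmpr1a* (ENSMUSG00000021796, chromosome 14 from 34410734 to 34503341, minus strand) encodes a type I receptor. It had 195 and 184 CPM in the *Myh10*+/+ lungs and 197 and 202 CPM in the *Myh10*-/- lungs. Its log2 fold change was 0.08 (SE 0.0486, 95% interval -0.03 to 0.18, adjusted p = 0.461 in edgeR's test). *Bmpr2* (ENSMUSG00000067336, chromosome 1 from 59763400 to 59879014, plus strand) encodes a type II receptor of the pathway, whose loss of function causes heritable pulmonary arterial hypertension in people. It had 301 and 300 CPM in the *Myh10*+/+ lungs and 333 and 304 CPM in the *Myh10*-/- lungs, so *Myh10*-/- lung 1 carried most of the difference. Its log2 fold change was 0.08 (SE 0.0538, 95% interval -0.03 to 0.20, adjusted p = 0.481). Between the lungs with high *Xist* the log2 difference of *Bmpr2* was 0.01, and between those with low *Xist* 0.15. With an offset for GC content and exon length, the log2 fold change was 0.0021 for *Bmpr1a* and turned to -0.08 for *Bmpr2*.

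The 3 targets are among the genes that BMP signalling raises, and 0 of them passed the test between genotypes, against 1.64% of tested genes. Signalling itself was not measured. *Id1* (ENSMUSG00000042745, chromosome 2 from 152736251 to 152737410, plus strand) encodes an inhibitor of basic helix-loop-helix factors. It had 64.0 and 74.7 CPM in the *Myh10*+/+ lungs and 68.0 and 67.5 CPM in the *Myh10*-/- lungs. Both *Myh10*-/- lungs fell between the *Myh10*+/+ lungs, which differed by 16.8%. The log2 fold change was -0.03 (SE 0.08, 95% interval -0.21 to 0.14, adjusted p = 0.891 in edgeR's test), and it was 0.08 between lungs with high *Xist* and -0.13 between those with low *Xist*. *Id3* (ENSMUSG00000007872, chromosome 4 from 136143497 to 136145755, plus strand), a relative of *Id1*, had 118 and 119 CPM in the *Myh10*+/+ lungs and 115 and 117 CPM in the *Myh10*-/- lungs. Its groups did not overlap, but the log2 fold change was -0.03 (SE 0.0511, 95% interval -0.14 to 0.08, adjusted p = 0.821), and it was 0.02 with the GC and length offset. *Smad6* (ENSMUSG00000036867, chromosome 9 from 63953076 to 64022059, minus strand) encodes an inhibitory SMAD that feeds back on the receptors. It had 24.8 and 26.6 CPM in the *Myh10*+/+ lungs and 26.2 and 25.9 CPM in the *Myh10*-/- lungs, with a log2 fold change of 0.02 (SE 0.0728, 95% interval -0.14 to 0.18, adjusted p = 0.922). Its log2 difference was 0.06 between lungs with high *Xist* and -0.02 between those with low *Xist*. The intervals of the fold ran from 0.867 to 1.1 for *Id1*, from 0.907 to 1.06 for *Id3* and from 0.909 to 1.13 for *Smad6*.

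Among the extracellular modulators, the genotype means of *Bmper* nearly coincided and *Grem1* was scarcely expressed. *Bmper* (ENSMUSG00000031963, chromosome 9 from 23223076 to 23485200, plus strand) encodes a secreted BMP-binding regulator known from endothelium. It had 50.0 and 48.5 CPM in the *Myh10*+/+ lungs and 49.2 and 49.6 CPM in the *Myh10*-/- lungs, the latter inside the range of the former. Its log2 difference was -0.01 between lungs with high *Xist* and 0.02 between those with low *Xist*. The log2 fold change was 0.0036 (SE 0.0723, 95% interval -0.15 to 0.16, adjusted p = 0.988 in edgeR's test). *Grem1* (ENSMUSG00000074934, chromosome 2 from 113746164 to 113758646, minus strand) encodes Gremlin, a BMP antagonist. It had 10 and 8 reads in the *Myh10*+/+ lungs and 21 and 14 reads in the *Myh10*-/- lungs, which is 0.437, 0.42, 0.755 and 0.435 CPM. *Myh10*-/- lung 1 was high and the other 3 lungs were alike. Counting error alone was 21.8% to 35.4% per lung, and the log2 fold change of 0.45 (SE 0.451, 95% interval -0.54 to 1.43, adjusted p = 0.673) covers both a fall and a rise. Between the lungs with high *Xist* its log2 difference was -0.005, and between those with low *Xist* 0.85. With so few reads and 2 lungs per genotype, the interval of *Grem1* is wide, and the smallest detectable difference was not computed.

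**Figure D2:**
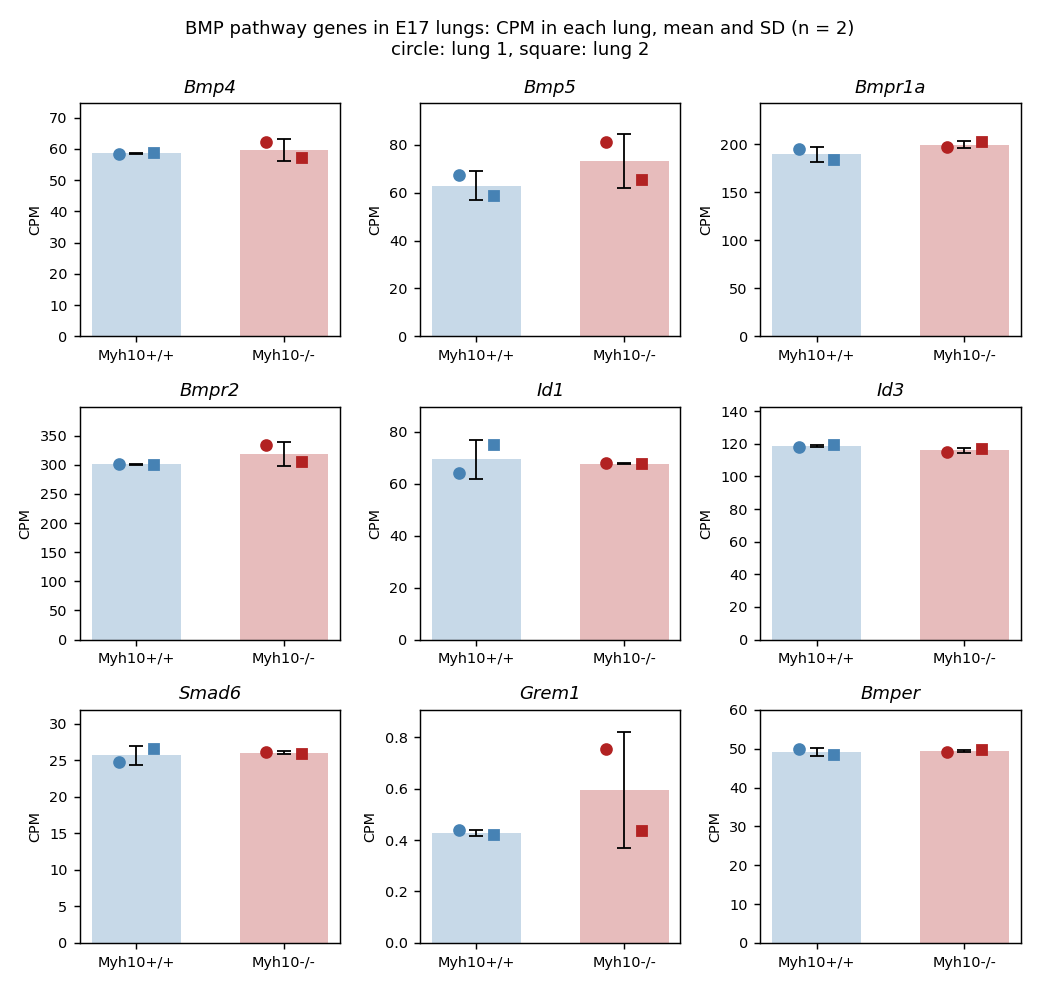
CPM of each BMP member in the 2 *Myh10*+/+ lungs (blue) and the 2 *Myh10*-/- lungs (red). Bars show the mean, whiskers the SD (n = 2), and each axis starts at 0; apart from *Bmpr1a*, *Bmpr2* and *Id3*, the lungs of both genotypes overlap, and *Bmp5* and *Grem1* are highest in *Myh10*-/- lung 1.

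Start windows of 300 bases (250 before and 50 after the start of the gene, RefSeq, GRCm38.p6) were found for 8 of the 9 members, all but *Id1*. They were searched on both strands for the SMAD box (GTCTG or its complement CAGAC) and for the GC-rich motif GGCGCC that SMADs of the BMP branch bind. The SMAD box was present in the windows of *Bmp5*, *Grem1* and *Id3*, and in 49.6% of 32851 windows. The GC-rich motif was present in those of *Bmpr1a*, *Bmpr2* and *Grem1*, and in 11.9% of windows. Neither was found in those of *Bmp4*, *Bmper* and *Smad6*. The sites below are shown for the receptors, *Bmp5* and the target *Id3*, because the receptors and *Id3* are the members whose genotypes did not overlap and *Bmp5* is the member with the lowest p. The motif is in capitals, the sequence is given on the strand of the gene, and the place of the motif is counted in bases from the start that RefSeq gives. For *Id3*, *Bmpr1a* and *Bmpr2* that start lies inside the GENCODE span given above, and so do the sites shown.
*Id3*, at -167 (chr4:136143643-136143671, plus strand): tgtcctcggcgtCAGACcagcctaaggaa
*Id3*, at -68 (chr4:136143742-136143770, plus strand): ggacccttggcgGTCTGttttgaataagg
*Bmp5*, at -134 (chr9:75775219-75775247, plus strand): tagatcactgttGTCTGttacatgcatgg
*Bmpr1a*, at -198 (chr14:34502727-34502756, minus strand): tgcgcgcgcgccGGCGCCtcttgctcgccc
*Bmpr2*, at -105 (chr1:59764162-59764191, plus strand): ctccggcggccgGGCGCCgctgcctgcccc
A match is a description of letters in these windows, and the counts do not bear on binding.

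Beyond the members, 49 further genes of the pathway are reported here, and 43 of them had enough reads to be tested. In edgeR, 0 of these 43 had an adjusted p under 0.05 and 5 an unadjusted p under 0.05, and DESeq2 called 1, the antagonist *Nbl1*. DESeq2 gave no adjusted p for several of them, *Bmp2*, *Nog* and *Chrd* among them, and so could not call these. The median log2 fold change was 0.01, with 19 genes below 0 and 24 above. Genotypes did not overlap for 10 lower and 6 higher genes. Over all tested genes, edgeR called 1.64% and DESeq2 1.83%. In edgeR 16.5% had an unadjusted p under 0.05, and 48.3% did not overlap. *Bmp10* had 0 counts in every lung, which allows up to 3 counts or 0.0932 to 0.158 CPM, and the other 5 untested genes were *Gdf2*, *Gdf5*, *Gdf7*, *Chrdl2* and *Tll2*.

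*Nbl1* encodes a secreted protein that binds BMPs, and it was called by DESeq2 but not by edgeR's main test. Of the 13 alternatives that kept 4 lungs, 7 called it, among them DESeq2 and other settings of edgeR. It had 67.2 and 68.5 CPM in *Myh10*+/+ lungs, against 52.8 and 58 CPM in *Myh10*-/- lungs. The log2 fold change was -0.29 (SE 0.0734), and its adjusted p was 0.0733 in edgeR and 0.0407 in DESeq2. It was -0.21 between the lungs with high *Xist* and -0.38 between those with low *Xist*. *Tmem100*, a BMP target of arterial endothelium, had 26 and 27.1 CPM against 22.7 and 21.5 CPM (log2 fold change -0.26, SE 0.0738, adjusted p = 0.101 in edgeR's test). *Acvrl1*, the type I receptor of endothelial cells for BMP9 and BMP10, had 212 and 219 CPM against 191 and 194 CPM (log2 fold change -0.16, SE 0.0458, adjusted p = 0.104). *Acvrl1* was called with the replicate number as a block (adjusted p = 0.036 in edgeR's test), but not with the crossed numbers as a block (adjusted p = 0.238). Without *Myh10*-/- lung 2 its log2 fold change was -0.17. The genotypes did not overlap for any of these 3 genes, as for 48.3% of tested genes. With the GC and length offset, *Tmem100* was at -0.33 with an adjusted p of 0.027.

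Markers of endothelium stand beside *Tmem100* and *Acvrl1*. Of 10 endothelial markers, 10 had a log2 fold change below 0 and 1, *Cldn5*, was called lower, while 49.5% of all tested genes were below 0. Their median log2 fold change was -0.13, and their summed level was 2130 and 2133 CPM in the *Myh10*+/+ lungs and 1955 and 1937 CPM in the *Myh10*-/- lungs. A second endothelial list, of 5 alveolar capillary markers, had a median of 0.06 with 3 above 0 and 2 below, and 1, *Car4*, was called lower. The sum of this list was 845 and 873.1 CPM in *Myh10*+/+ against 878.3 and 883.8 CPM in *Myh10*-/- lungs. *Bmper*, the member described above as known from endothelium, was not lower, with a log2 fold change of 0.0036. The part of either list in the values of *Tmem100* and *Acvrl1* was not tested.

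By role, the median log2 fold change ran from -0.02 for the ligands to 0.10 for the extracellular modulators. Among the 7 other ligands tested, 0 were called. *Bmp3* was at 0.05, *Bmp2* at -0.35 (adjusted p = 0.32 in edgeR's test) and *Bmp8a*, with under 1 CPM in each lung and windows shared with *Bmp8b*, at -0.79 (adjusted p = 0.514). The value of *Bmp8a* was -2.01 without *Myh10*-/- lung 1 and -0.07 without *Myh10*-/- lung 2. Among 8 receptors and co-receptors, 0 were called and 4 were lower. The co-receptor *Eng* was at 0.08 on the log2 scale (adjusted p = 0.514).

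Of the 4 SMAD transducers, which carry the signal to the nucleus, 0 were called. *Smad5*, the most abundant of them in CPM, was at 311, 303, 311 and 308 CPM in the 4 lungs, *Myh10*+/+ lungs given before *Myh10*-/- lungs. *Smad1* was at -0.08 and *Smad9* at 0.09 on the log2 scale. Of the 4 feedback inhibitors 0 were called, with *Smad7* at -0.04 and *Smurf2*, a ubiquitin ligase, at -0.05. Of the 7 further targets 0 were called and 5 were higher, with *Id2* at 0.07 and *Hey1* at -0.16 (adjusted p = 0.443 in edgeR's test). Of the 13 further extracellular modulators tested and reported here, 0 were called by edgeR. *Bmp1*, a protease that cleaves the antagonist chordin, was at 0.12 (adjusted p = 0.233), and the most abundant, *Fstl1*, was at -0.15 (adjusted p = 0.426).

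**Figure D3:**
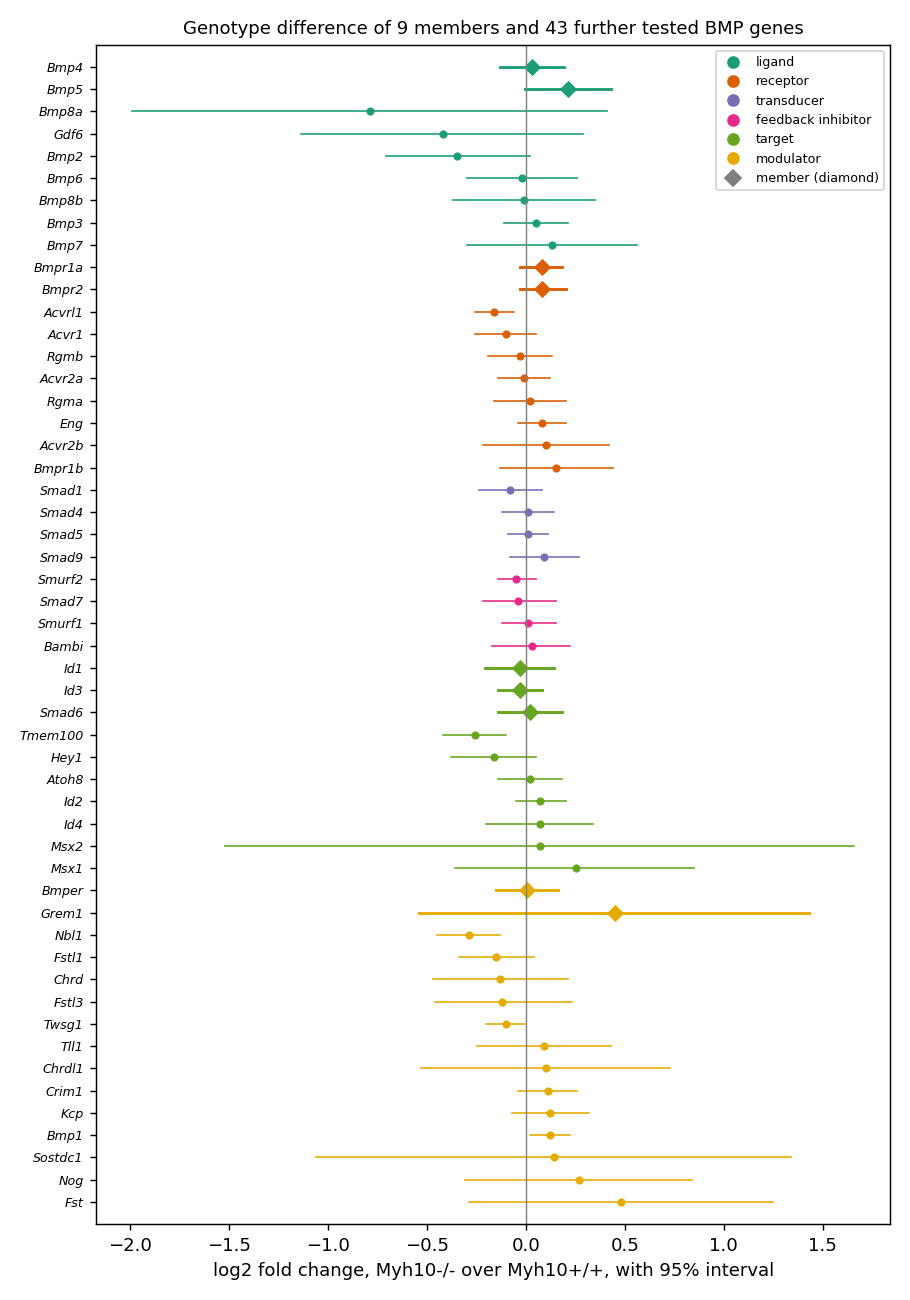
Log2 fold change, *Myh10*-/- over *Myh10*+/+, with its 95% interval from edgeR's test, for the 9 members (diamonds) and 43 further BMP genes (circles), coloured by role. The interval of every member includes 0, while those of *Nbl1* at -0.29, *Tmem100* at -0.26, *Acvrl1* at -0.16 and *Twsg1* at -0.10 lie below it and that of *Bmp1* at 0.12 lies above it.

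The marker lists of the lung's cell types differed in how many of their genes were called. Over all tested genes, 1.34% were called lower. Of 8 alveolar type 1 markers 7 were called lower (median log2 fold change -0.45), and of 8 alveolar type 2 markers 6 (median -0.42). Of 7 pan-epithelial markers 3 were called lower. Of 10 lung mesenchyme markers 0 were called, with a median of 0.0068 and a summed level of 4799, 4938, 4869 and 4735 CPM in the *Myh10*+/+ and then the *Myh10*-/- lungs. Of 6 distal tip markers (median 0.05), 7 smooth muscle markers (median -0.07) and 7 pericyte markers (median -0.22) 0 were called. Among the pericyte markers, 6 were below 0 and 1 above. In edgeR's test 4 of them had an unadjusted p under 0.05, against 16.5% of tested genes. *Car4* was the 1 called of 5 alveolar capillary markers, a list with a median of 0.06 and 3 genes above 0. *Msln* was the 1 called of 5 mesothelium markers, whose median was -0.11. Both genes were called lower. Cardiac muscle markers, at 249.1, 312, 199.9 and 183.1 CPM in sum, were called lower for 5 of 7 tested, as were 2 of 8 leukocyte and 2 of 8 erythroid markers. *Lyz2* is counted among the called genes of both the alveolar type 2 and the leukocyte list. None of these lists had a gene called higher, and over all tested genes 56 of 18763 were. The part of these shifts in the levels of the members was not tested.

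**Figure D4:**
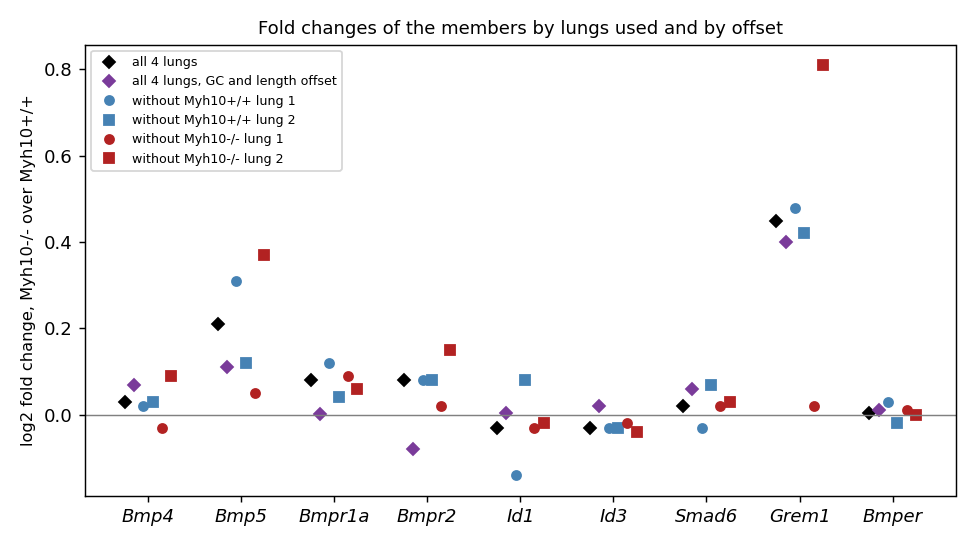
Log2 fold change of the 9 BMP members from all 4 lungs, with the GC content and exon length offset, and without each lung in turn. Without *Myh10*-/- lung 2 *Bmp5* is at 0.37 and *Grem1* at 0.81; the values of *Id3* stay between -0.04 and 0.02.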

How the data were processed

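The data are RNA-seq libraries of the left lung lobe at E17, 2 of *Myh10*+/+ and 2 of *Myh10*-/- genotype. The authors deposited raw read counts per Ensembl gene: stranded single-end mRNA reads were trimmed, aligned to GRCm38 with STAR 2.4.0a and counted on exons with featureCounts 1.5.1, without reads on several genes or regions. Whether counting used strand is not stated. Values were tested with edgeR 4.0.16 in R 4.3.3 (TMM, quasi-likelihood, at least 5 counts on average, Benjamini-Hochberg over all 18763 tested genes). Genotype was the only term. Replicates are mice, whose litters are not given, and 2 per genotype limit the precision; intervals and floors of a count of 0 cover counting error or these lungs only. Intervals of fold changes are at 95%, from the test's F and its degrees of freedom. Alternatives were DESeq2 1.42.0, other normalizations and filters, robust = TRUE, autosomes, a threshold of 0.1, a replicate block, an offset for GC content and exon length (loess span 0.3), and leaving out each lung; a block by crossed numbers was added after seeing the data. Exon lengths and antisense overlaps came from GENCODE annotation of GRCm38, and 75-base windows were searched in its transcripts for shared sequence. In simulated data the test recovered 52 of 97 genes changed by 0.5 on the log2 scale, and 80 of 97 changed by 1. Of its 138 calls there, 6 were false. The members and gene lists were chosen with earlier results of these data known. In the wider BMP list, 1 gene is not reported here, and counts over that list leave it out. Named were the 9 members, called genes of the wider BMP list, and from each of its role groups the 2 genes with the lowest p and the most abundant gene. Marker lists are given as counts, with called genes named for lists with 1 call and for a call shared by 2 lists.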

Additional observations from a re-analysis of the deposited data

How the results depend on the processing

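The number of members called was 0 in each of the 13 alternatives that kept 4 lungs. With the GC content and exon length offset, *Bmpr2* reversed to -0.08, *Id1* to 0.0047 and *Id3* to 0.02; with the offset and the replicate block *Id1* was 0.0057, with the offset and the crossed block 0.0061, and *Bmpr2* and *Id3* were again -0.08 and 0.02. *Smad5* also turned, to -0.04, in these 3 fits. The cause was not tested. Leaving out a lung gave ranges of -0.03 to 0.09 for *Bmp4*, 0.05 to 0.37 for *Bmp5*, -0.14 to 0.08 for *Id1*, -0.03 to 0.07 for *Smad6*, -0.02 to 0.03 for *Bmper*, -0.007 to 0.03 for *Smad5*, -0.13 to 0.06 for *Smad7* and -0.009 to 0.15 for *Id2*; the lone lung of a genotype is then assumed to vary like the other group.

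Of the 43 wider genes tested and reported here, 0 were called by the main test. The number was 1 at an adjusted p under 0.1, with no filter, robust = TRUE, the DESeq2 Wald test, autosomes alone or the crossed block (*Nbl1* in each), 1 with the replicate block (*Acvrl1*), 1 with the offset, alone or with the replicate block (*Tmem100*), and 2 with the crossed block and the offset. Leaving out a lung gave log2 fold changes of -0.36 to -0.22 for *Nbl1*, -0.30 to -0.22 for *Tmem100*, -0.18 to -0.14 for *Acvrl1* and -0.29 to -0.04 for *Hey1*. The adjusted p of *Nbl1* ran from 0.0129 to 0.117 over the 13 alternatives with 4 lungs, passing in 7. Same-numbered lungs deviated with a correlation of -0.297 over all tested genes and 0.011 without chromosomes X and Y, so the numbers were not taken as pairs. With the replicate block *Bmp5* was at 0.21 with an adjusted p of 0.128.

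Over all genes, 252 lower and 56 higher calls became 234 and 112 with library totals, 688 and 474 with no filter, 339 and 135 with robust = TRUE, 466 and 244 with the replicate block, 439 and 71 with the offset, 473 and 223 at a threshold of 0.1, 784 and 220 with the crossed block and offset, and 965 and 861 without *Myh10*-/- lung 2, but 162 and 29 without *Myh10*+/+ lung 2. Among the members, *Grem1* had the fewest reads, 8 to 21 per lung.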
